A study of Mus musculus with 30 samples.

Results

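Dorsal and ventral prospective retinal pigment epithelium (pRPE) of the embryonic day 12 (E12) mouse eye were compared. The members were chosen by tissue label: of the 30 E12 libraries, 14 carried an RPE label, 7 of them dorsal (library numbers 2, 31, 32, 61, 62, 81 and 82) and 7 ventral (library numbers 6, 7, 36, 37, 66, 86 and 87). The dorsal group held 3 distal and 4 proximal libraries, and the ventral group 4 distal and 3 proximal. Batch A supplied 3 dorsal and 4 ventral libraries, and batch B supplied 4 dorsal and 3 ventral, so that dorsal-ventral side, position and batch could be separated in one model. The other 16 libraries came from the optic stalk (OS), 7 dorsal and 9 ventral.

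All 14 libraries carried the genotype label Control. In the study, controls were littermates without the Dct-Cre transgene, on a C57Bl6/J background. Floxed alleles or a reporter that such littermates may carry were not analysed here. RNA came from laser-captured patches of frozen head sections (Geo-seq, which amplifies the cDNA of a small dissected region before sequencing). The study design names 4 control embryos at this age and the labels do not tie libraries to embryos. The study lists a mouse for each library in a table that was not used here. With 7 libraries a side, some of a side must therefore share an embryo. The p-values given here treat libraries as independent and are too small as far as libraries of one embryo resemble each other within a side. Embryos shared between the sides were not modelled.

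The RPE is the pigmented epithelium behind the retina. It arises from the outer layer of the optic cup, where Mitf, Otx2 and Tfec direct the melanosome genes. The optic cup is patterned along its dorsal-ventral axis: BMP signalling and T-box factors (Tbx2, Tbx3, Tbx5) mark its dorsal side, Vax and Pax2 factors its ventral side and stalk, and retinoic acid synthesis is split between a dorsal enzyme (Aldh1a1) and a ventral one (Aldh1a3). Whether such a pattern appears in the pRPE at E12 is the question that this comparison addresses.

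The pRPE libraries held 1557558 to 6041021 counts, of which 30.4% to 55.4% fell on genes of the mitochondrial genome. As a check of the label, 8 of 16 melanosome and pigment genes had a count in at least 1 pRPE library. Slc45a2, a melanosome transporter, was counted in 13 of 14 libraries and Gpnmb, a melanosome glycoprotein, in all 14. Both were also counted in dorsal OS libraries, so they did not by themselves tell the pRPE from the dorsal OS. Tyr, Tyrp1 and Dct, the defining enzymes of melanin synthesis, were listed at 0 in all 14 pRPE libraries. Genes used by nearly every cell, Actb and Eef1a1 among them, were listed at 0 as well. A value in this table is therefore only the count listed under a symbol, and a 0 was not read as absence. Markers of other cell types were counted in some libraries. The summed level of the 12 periocular mesenchyme genes ranged from 1.04 to 1034 CPM (counts of a gene scaled by the library's total count) in dorsal and from 0 to 417 in ventral libraries, with the highest sums in dorsal libraries 61 and 62 and Col1a1 at 0 throughout. The 10 blood genes summed to 0 to 54.3 CPM in dorsal and 0 to 60.9 in ventral libraries. For the 12 neural retina genes the sums were 1.49 to 76.4 and 1.29 to 94.8 CPM. The 8 lens genes summed to 4.45 to 63 CPM in dorsal libraries, and to 82.8 CPM in ventral library 66 and 0 in the other 6. The ranges of all these lists overlapped between the sides, and the part of such cells in any result was not tested.

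The dorsal libraries listed more genes. A gene counted as detected with at least 1 count, and detected genes ran from 3427 through a median of 7176 to 9886 in dorsal libraries and from 2979 through 4285 to 5566 in ventral ones. Of the dorsal libraries 5 exceeded every ventral library, while 2 and 61 fell inside the ventral range. The means were 6790 ± 2514 (SD, n = 7) and 4371 ± 1063 (SD, n = 7), a difference of 2419 genes (exact permutation of the 3432 splits, two-sided p = 0.0414, or 0.124 after Benjamini-Hochberg adjustment over 3 library measures). The difference in nuclear counts did not pass the test, at 1833620 ± 531599 dorsal and 1576030 ± 616393 ventral (exact permutation p = 0.413), nor did that in the mitochondrial share, at 41.2% ± 7.73 and 43.5% ± 6.01 (exact permutation p = 0.546). Among proximal libraries alone the mitochondrial share was 41.4% ± 2.58 in 4 dorsal and 48.2% ± 0.170 in 3 ventral libraries without overlap, a difference of -6.83 percentage points (exact permutation p = 0.0571, the smallest that 35 splits allow), and its part in the results was not tested. With every library thinned to 805856 nuclear counts, dorsal libraries still listed 2231 more nuclear genes (exact permutation p = 0.0443). The difference was uneven between batches. It was 460 genes in batch A (exact permutation p = 0.743) and 4334 in batch B (exact permutation p = 0.0857). Leaving out any of 9 of the 14 libraries raised p above 0.05. Whether fewer cells or less RNA per cell was captured cannot be told apart in such bulk samples. Values from the model with detected genes per library as a covariate are given below for the gene lists and for some of the named genes.

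**Figure D1:**
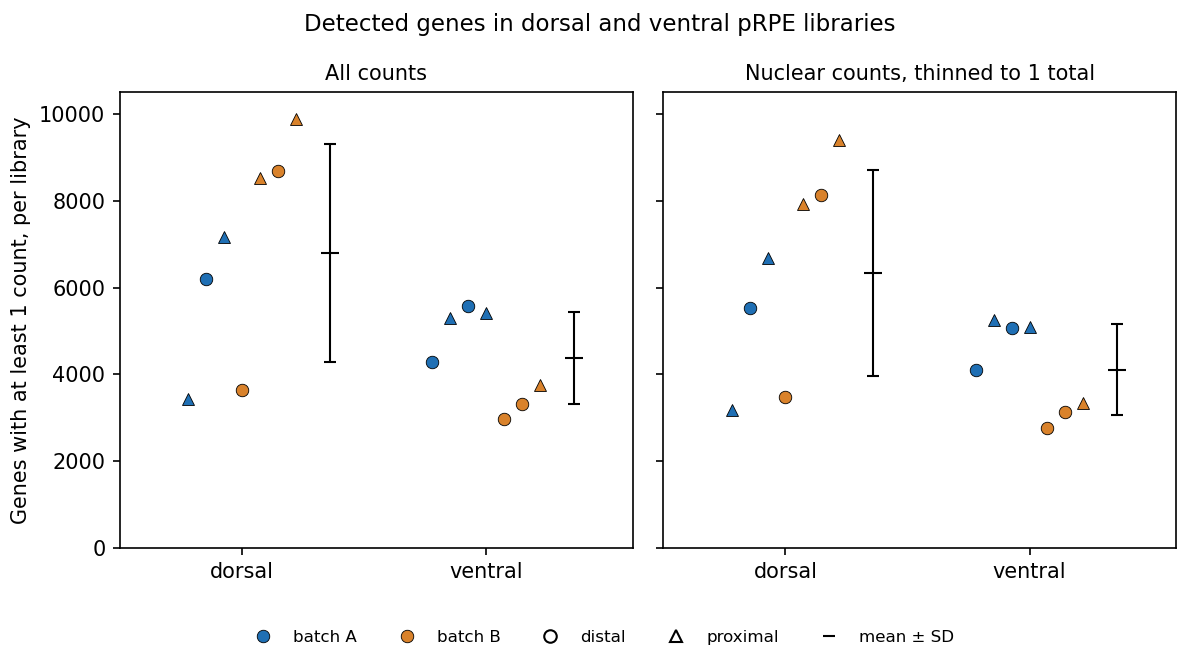
Genes with at least 1 count (vertical axis) in each dorsal and ventral pRPE library, from all counts (left) and from nuclear counts thinned to 805856 per library (right). Symbols give batch and position and bars the mean ± SD. Of the dorsal libraries 5 lie above all ventral ones in the left panel and dorsal libraries 2 and 61 lie among them.

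No single gene passed the main test of dorsal against ventral pRPE. Of 56484 genes in the table, 6305 had more than 10 counts in at least 3 of the 14 libraries and were tested with edgeR, with batch and position as covariates. With an adjusted p below 0.05 and a change of more than 0.58 on the log2 scale as the threshold, edgeR called 0 genes higher and 0 lower in dorsal pRPE (0% of those tested). The smallest adjusted p was 0.304. Without adjustment, 647 genes (10.3%) were higher and 36 (0.571%) lower at p under 0.05. DESeq2 on the same counts called 222 genes higher (3.9% of 5693) and 19 lower (0.334%), and limma voom 43 and 1. Of the 43 genes voom called higher, 37 (86%) were among the 222 of DESeq2, of which they made up 16.7%.

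The size of the uncalled differences varied with how many libraries counted a gene, while the median stayed above 0 in every such group. Over all 6305 genes the log2 fold changes had a median of 0.89 (0.52 to 1.33 with any 1 library left out), but 0.19 over the 962 genes counted in all 14 libraries and 2.80 over the 1650 counted in 5 to 7. For the 1219 genes counted in 3 or 4 libraries it was 2.18. Of the 647 genes at p under 0.05 on the dorsal side, 398 were at 0 in every ventral library, and of the 36 on the ventral side 5 were at 0 in every dorsal library. Over all genes tested 418 were at 0 in every ventral and 5 in every dorsal library, and such genes passed the filter only through the side that counted them, so these counts support no direction. When detected genes per library entered the model as well, the median turned to -0.21, and edgeR listed 307 genes higher and 273 lower at p under 0.05, with none called. By presence alone, 180 genes (2.85%) were counted in at least 5 more dorsal than ventral libraries and 1 gene (0.0159%) the other way.

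**Figure D2:**
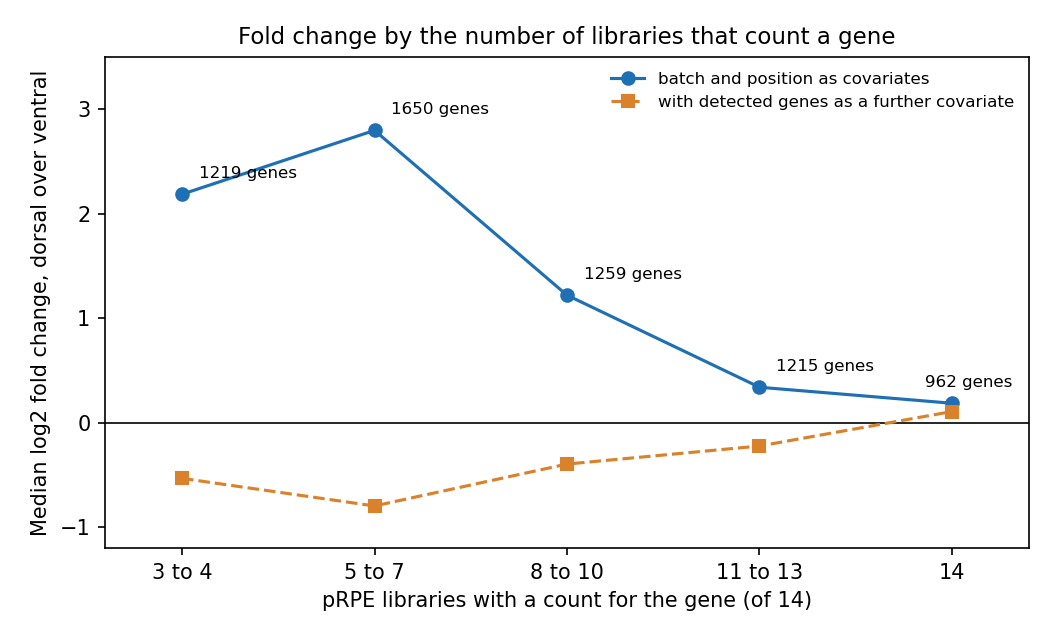
Median fitted log2 fold change, dorsal over ventral (vertical axis), of genes grouped by how many of the 14 pRPE libraries counted them (horizontal axis), with and without detected genes per library in the model. The median falls from 2.80 (5 to 7 libraries) to 0.19 (14 libraries) without that covariate and runs from -0.80 to 0.11 with it.

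Complete separation of the sides was rare. Every dorsal CPM lay above every ventral CPM for 3 of the 6305 genes (0.0476%), Hgs, Taf4b and Dlgap2, and the reverse held for 3 genes (0.0476%), Gm10505, Stk11 and Cbarp. With raw counts in place of CPM the numbers became 6 and 1, and with CPM of nuclear counts alone 4 and 1. Hgs, Taf4b and Dlgap2 kept their separation on both scales. Gm10505 kept it with nuclear counts and not with raw counts, and Stk11 and Cbarp kept it on neither.

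Hgs encodes a subunit of the endosomal sorting machinery that hands ubiquitinated receptors to lysosomes. Its counts ran from 27 through 72 to 182 in dorsal libraries and were 0 in all 7 ventral ones, including library 36 with the largest nuclear total. The dorsal mean of 29.2 ± 22.4 CPM (SD, n = 7) was at least 24.1-fold higher than the ventral floor of 3 counts per library (edgeR adjusted p = 0.304). The gene annotation used here holds 2 genes of this symbol, so no position is given.

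Taf4b, a TFIID subunit known from germ cells, lies at chr18:14783245-14900359 (GRCm38, plus strand). It was counted at 4 to 72 with a median of 22 in dorsal libraries and at 0 in every ventral one. Its dorsal mean of 8.16 ± 3.85 CPM was at least 6.74-fold above the ventral floor (edgeR adjusted p = 0.304). Only the count of 4 in library 2 came near that floor.

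Dlgap2, a scaffold of excitatory synapses, spans chr8:14095865-14847680 on the plus strand, a long interval that holds 4 further annotated genes. Its counts ran from 60 through 233 to 268 in dorsal libraries. Ventral libraries held 37 counts in library 86, 2 in library 6 and 0 in the other 5. The means were 64.4 ± 22.3 and 2.76 ± 6.87 CPM, a log2 fold change of 6.91 (SE 2.16, edgeR adjusted p = 0.304). DESeq2 called Hgs, Taf4b and Dlgap2. These genes passed the filter only through the dorsal side, so their p-values and calls support no direction. In the model with detected genes the fitted log2 fold changes were 9.45, 7.25 and 7.96, each with an edgeR adjusted p of 0.530, where those of Hgs and Taf4b rest on a side at 0 and are no measured size. The exact permutation test of log2(CPM + 1) gave its smallest possible p for all 6 separated genes (exact p = 0.000583), as complete separation fixes it, and this became 0.392 after adjustment over the genes tested.

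Among genes with a mean of at least 20 counts, the smallest unadjusted p-values on the dorsal side included that of Hgs, of Ltbp3 and of 7 genes counted in 6 of 7 dorsal libraries, 6 of which were at 0 in all ventral ones. S1pr2, a sphingosine-1-phosphate receptor, held 739 counts at most and 0 in dorsal library 32. Acd, a subunit of the shelterin complex at telomeres, held 582 at most and 0 in dorsal library 2. The dorsal mean of S1pr2 was at least 111-fold above the ventral floor, or 71.9-fold without library 61, and that of Acd at least 71.3-fold. Within the dorsal side either gene thus ran from 0 to its highest level. Btnl2, a butyrophilin-like membrane protein, was at least 69.5-fold above the floor and 39-fold without library 2. Lmbr1, whose intron holds a limb enhancer of sonic hedgehog, gave 40.6-fold and 24.5-fold without library 2.

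Library 2, which had few detected genes, thus carried the highest level of several of these genes. Ago1, an Argonaute protein of RNA silencing, was at least 44.0-fold above the floor, and Brwd3, a bromodomain protein on the X chromosome, at least 43.2-fold. Crim1, a membrane protein that binds BMPs, was counted in 6 dorsal libraries, at up to 333, and at 2 in ventral library 87 alone, with means of 32.3 ± 43.1 and 0.0813 ± 0.215 CPM, the latter under the floor of 3 counts per library. Each of these 7 genes had an adjusted p of 0.304 in edgeR, or 0.530 with detected genes as a covariate, and an adjusted p under 0.05 in DESeq2. All 7 passed the filter only through the dorsal side, so these p-values restate that choice and support no direction. Genes annotated across the opposite strand (Carmil2 over Acd, Fez2 over Crim1) can share reads with them, because the library kit does not mark the strand.

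Among genes counted in at least 12 libraries, the smallest unadjusted p on the dorsal side belonged to Ltbp3, Psenen-ps, Tmem245, Fbxw2 and Cdcp3. Ltbp3, a binding protein of latent TGF-beta, was listed at 12177 to 30487 CPM in dorsal and 3691 to 21844 CPM in ventral libraries. The sides overlapped, and the log2 fold change was 1.10 (SE 0.27, edgeR adjusted p = 0.304). Tmem245, a membrane protein with little known of its role, ran from 181 through 319 to 565 CPM in dorsal and from 24.8 through 132 to 264 CPM in ventral libraries. Ventral library 66 alone lay within the dorsal range, and the log2 fold change was 1.84 (SE 0.61, edgeR adjusted p = 0.304). Fbxw2, an F-box subunit of a ubiquitin ligase, had counts of 64 to 472 in 6 dorsal libraries and of 1 in library 61, against 1 to 33 in ventral ones. Cdcp3, a CUB-domain protein, ran from 1 to 137 counts in dorsal and 0 to 3 in ventral libraries. For Psenen-ps, a pseudogene of a gamma-secretase subunit whose reads may belong to its parent gene, the means were 666 ± 257 and 389 ± 137 CPM. These 3 had log2 fold changes of 3.89 (SE 1.28), 5.18 (SE 1.71) and 1.16 (SE 0.35), none called by edgeR, and DESeq2 called Fbxw2 and Cdcp3. Fbxw2 and Cdcp3 passed the filter only through the dorsal side, so their p-values and calls support no direction. In the model with detected genes the log2 fold changes were 0.94 for Ltbp3, 1.78 for Tmem245, 4.00 for Fbxw2, 4.09 for Cdcp3 and 1.30 for Psenen-ps.

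**Figure D3:**
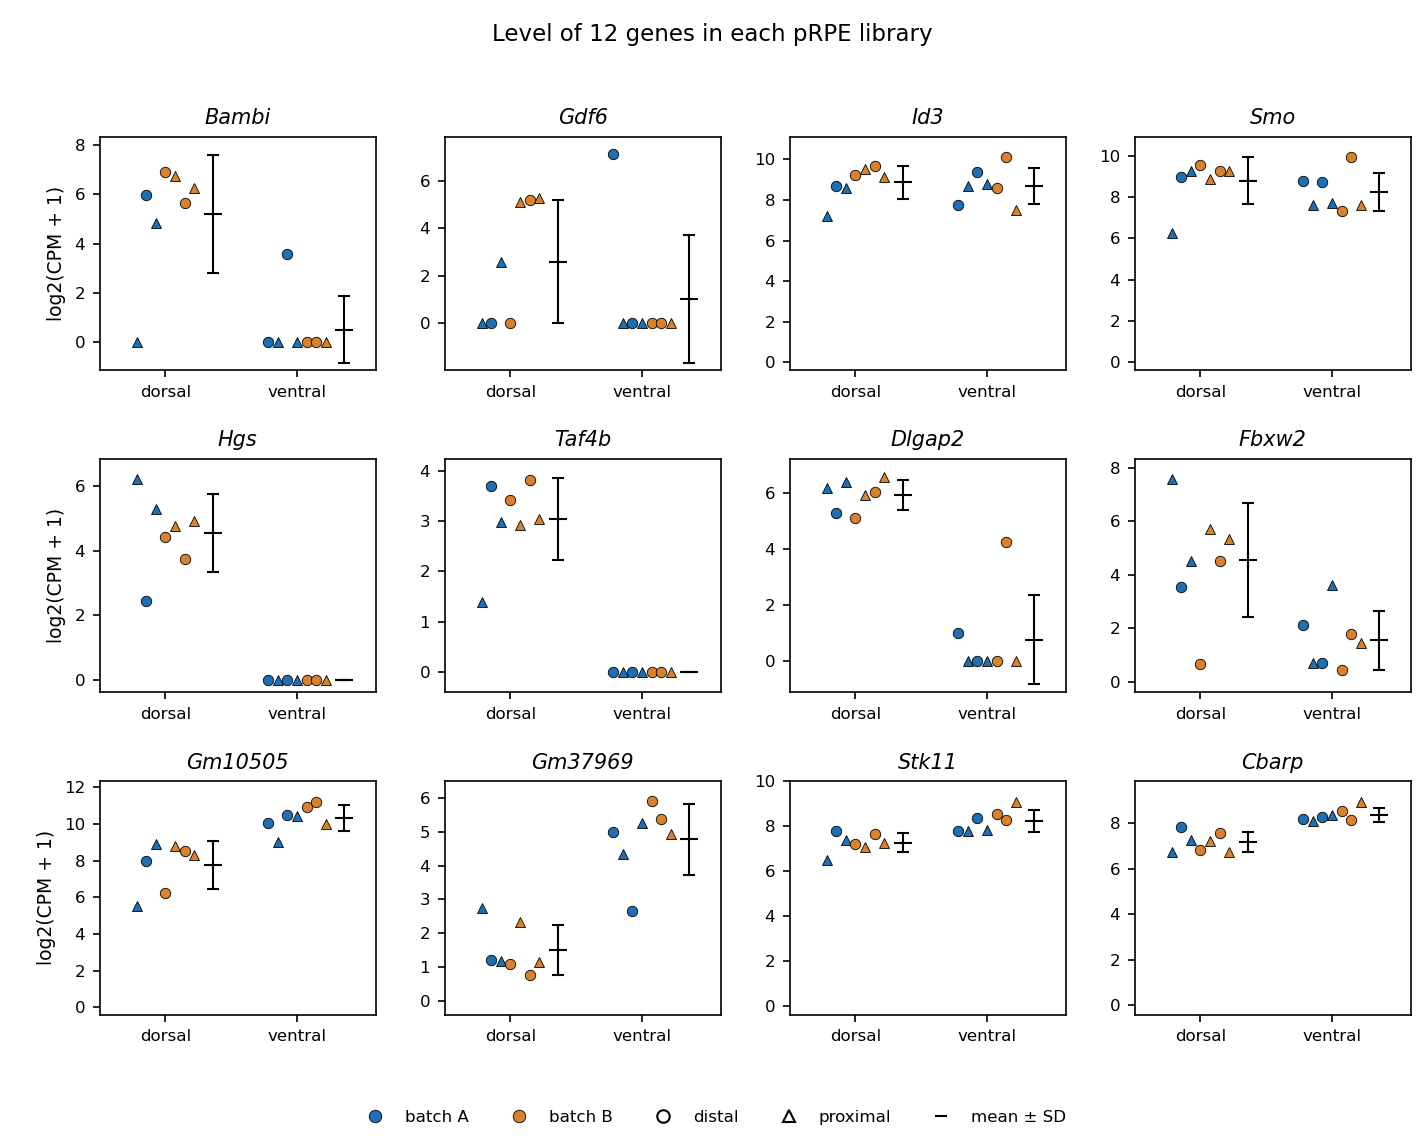
Level of 12 genes as log2(CPM + 1) (vertical axes, each panel with its own range) in every dorsal and ventral pRPE library. Symbols give batch and position and bars the mean ± SD. The sides do not overlap for Hgs, Taf4b, Dlgap2, Gm10505, Stk11 and Cbarp, and overlap for the other 6.

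On the ventral side the clearest values belonged to widely counted transcripts. Gm10505, an annotated transcript without a known function at chr17:27325035-27344833 (plus strand), ran from 44.9 through 319 to 476 CPM in dorsal and from 523 through 1414 to 2386 CPM in ventral libraries. The gap between the sides was narrow, and libraries 2 and 61, the dorsal ones with few detected genes, were the lowest. Its log2 fold change was -1.95 (SE 0.55, edgeR adjusted p = 0.304) and -3.00 with detected genes as a covariate. Gm37969 lies inside Tcf7l1, which encodes a Wnt pathway transcription factor on the same strand, so its reads cannot be told from those of its host. It held 2 to 16 counts in dorsal and 25 to 161 in ventral libraries, with no overlap in counts and one in CPM (log2 fold change -3.70, SE 1.25, edgeR adjusted p = 0.304). DESeq2 called both Gm10505 (adjusted p = 0.0212) and Gm37969 (adjusted p = 0.000167). Gm37969 passed the filter only through the ventral side, so its p-values and its call support no direction.

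Stk11, the kinase LKB1 that activates AMPK, and Cbarp, a regulator of calcium channels, overlap at their 3′ ends on chromosome 10 (chr10:80115803-80130682 and chr10:80130451-80140835), where unstranded reads cannot be told apart. They held 10416 and 10485 counts over the 14 libraries and similar counts within each library, so they may be 1 signal. Stk11 ranged from 90.1 to 219 CPM in dorsal and from 220 to 550 CPM in ventral libraries. Cbarp ranged from 105 to 228 and from 274 to 496 CPM. Their separation was small and was lost with CPM of nuclear counts, with log2 fold changes of -0.68 (SE 0.46, edgeR adjusted p = 0.809) and -0.83 (SE 0.45, edgeR adjusted p = 0.609). With detected genes as a covariate these were -0.82 for Stk11 and -0.96 for Cbarp.

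Golph3, a Golgi phosphoinositide-binding protein, ran from 160 through 404 to 747 CPM in dorsal and from 489 through 650 to 2296 CPM in ventral libraries, where library 86 stood well above the rest (log2 fold change -1.0, SE 0.38). Snd1, a nuclease of RNA silencing complexes, averaged 155 ± 98.5 and 414 ± 205 CPM, although ventral library 6 was low at 166 counts (log2 fold change -1.43, SE 0.51). R74862, a processed transcript across Cd81, averaged 824 ± 345 and 2492 ± 1314 CPM (log2 fold change -1.28, SE 0.38). All 3 overlapped between the sides and had an edgeR adjusted p of 0.304. With detected genes as a covariate the log2 fold changes were -1.23 for Golph3, -1.19 for Snd1 and -1.16 for R74862.

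Sparser genes completed the ventral side. Tenm3, a teneurin that guides visual map formation, held at most 7 counts in dorsal libraries and 33 to 616 in ventral libraries 6, 36, 37 and 87, with 4, 4 and 0 in the remaining ventral ones (means 0.578 ± 0.870 and 34.9 ± 63.1 CPM). Csf2rb2, an interleukin-3 receptor chain, was counted at 208 to 435 in 4 ventral libraries and at 6 in 1 dorsal library (means 0.485 ± 1.28 and 60.2 ± 61 CPM). Cd37, a tetraspanin of leukocytes, was counted in 4 ventral and 2 dorsal libraries (means 4.24 ± 7.63 and 39.8 ± 56.8 CPM). These 3 genes rested on a minority or a bare majority of libraries on their high side.

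Hspa4l, a heat shock protein, was counted in 4 ventral and 2 dorsal libraries (means 1.31 ± 2.61 CPM dorsal and 36.4 ± 52.7 CPM ventral). Mmel1, a metalloendopeptidase, was counted in 3 and 2 (means 5.51 ± 9.5 and 33.1 ± 46.0 CPM), and Rrp1b, a nucleolar protein, in 3 and 2 (means 1.82 ± 3.31 and 81.6 ± 149 CPM). Rasgef1c, an exchange factor for Ras-family GTPases, was counted in 3 ventral libraries only, at 113, 94 and 95 in libraries 6, 37 and 66, and at 0 in all dorsal ones. None of these 4 or of the 3 before them was called by edgeR, and DESeq2 called Tenm3, Cd37 and Hspa4l. All of these genes passed the filter only through the ventral side, so their p-values and calls support no direction.

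Of the regional markers, Bambi, a decoy receptor that is itself induced by BMP signalling, had the clearest dorsal values. It was counted at 370, 87, 209, 416, 140 and 184 in dorsal libraries 31, 32, 61, 62, 81 and 82, at 0 in library 2, at 51 in ventral library 36 and at 0 in the other 6 ventral libraries. Presence in 6 of 7 dorsal and 1 of 7 ventral libraries included library 61, one of the dorsal libraries with few detected genes. The means were 62.2 ± 41.7 and 1.56 ± 4.13 CPM, a log2 fold change of 7.61 (SE 2.58). Bambi was not called by edgeR (adjusted p = 0.304) and was called by DESeq2 (adjusted p = 0.00166) and limma voom (adjusted p = 0.0155). It passed the filter only through the dorsal side, so these p-values restate that choice and support no direction. Its log2 fold change was 5.96 with detected genes as a covariate, 6.38 in batch A alone and 10.92 in batch B alone.

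Gdf6, a BMP ligand of the dorsal eye, gave no such split. Dorsal libraries 32, 62, 81 and 82 held 16, 130, 102 and 93 counts, and ventral library 6 held 288, the highest value of all. The other 9 libraries were at 0. Its log2 fold change of 4.24 (SE 8.08, edgeR adjusted p = 1) changed sign, to -3.49, with detected genes as a covariate. Tbx2 was counted in dorsal libraries 32 and 82 and ventral library 6, at 80, 22 and 88. Tbx3 was counted in dorsal libraries 31 and 81 alone, at 54 and 108, and Tbx5 in ventral library 7 alone, at 5. Bmp4, the dorsal ligand, was listed at 8 counts in dorsal library 82 only, and Aldh1a1 at 15 in dorsal library 31 only.

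All 10 dorsal optic cup genes had a count somewhere in the pRPE and 3 were tested. Of these 1, Bambi, had an unadjusted p under 0.05 on the dorsal side, as had 10.3% of all genes. Bambi passed the filter only through the dorsal side, so its p supports no direction. The 3 tested genes had a median log2 fold change of 4.24, that of Gdf6 itself, against 0.89 over all genes. With detected genes as a covariate the median was -2.10 against -0.21. The mean level of Gdf6 was 15.8 CPM in dorsal and 19.9 CPM in ventral libraries, so its fitted fold change and its means differ in direction. Of the 10 ventral optic cup genes 8 had a count and none passed the filter. Vax2 was listed in ventral library 36 alone (70 counts), Pax2 in ventral library 37 (103) and dorsal library 82 (4), and Aldh1a3 in dorsal library 82 alone (5). Ephb3, an ephrin receptor, was listed in ventral library 7 alone (26). Bmpr1b, a BMP receptor, was listed in dorsal library 31 (24) and ventral library 87 (287), and Ntn1, a guidance cue of the ventral eye, in dorsal libraries 31 (136) and 82 (10). Each of these ventral genes was thus seen in 1 or 2 libraries, on either side. Ventral identity could therefore not be read from these genes at this depth.

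Within the BMP pathway, 4 of 19 genes were tested and 2 of them, Bambi and Smad4, reached an unadjusted p under 0.05 on the dorsal side, as did 10.3% of all genes, with a median log2 fold change of 5.60 against 0.89 over all genes. Smad4 was at 0 in every ventral library. Bambi and Smad4 both passed the filter only through the dorsal side, so their p-values support no direction. With detected genes as a covariate the median was 1.48 and 1 of the 4 had an unadjusted p under 0.05. Smad4, the common mediator of BMP and TGF-beta signals, named after its values were seen, was counted in dorsal libraries 32, 62 and 81 alone, at 49, 57 and 43. Id3, a direct target of BMP signalling, was abundant everywhere: 149 through 568 to 811 CPM in dorsal and 179 through 409 to 1101 CPM in ventral libraries. The ranges lay almost on top of each other (log2 fold change 0.38, SE 0.48, edgeR adjusted p = 1). Library 2 was the lowest dorsal library for Id3, as it was for Bambi. The receptor Bmpr2 was counted at 5 or fewer in 13 libraries and at 53 in dorsal library 82, the library with the most detected genes.

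The other pathways gave few tested genes. In the Wnt list 2 of 18 were tested, with a median log2 fold change of 3.63, or 0.53 with detected genes as a covariate. Lrp6, the Wnt co-receptor, was counted in all 7 dorsal libraries, at 1 to 248, and in ventral libraries 36, 37 and 87 at 64, 64 and 1 (log2 fold change 4.12, SE 3.45, edgeR adjusted p = 0.928). Wnt7b, a ligand, was counted in dorsal libraries 32 and 81 and ventral library 7 (44, 63 and 33), the receptor Fzd4 in ventral library 37 alone (122) and the secreted Dkk3 in ventral library 6 alone (70). The ligands Wnt2b and Wnt3 were counted in dorsal libraries 32 and 62 alone (67 and 48, 50 and 61), and the receptor Fzd5 in dorsal library 82 alone (36). In the hedgehog list 4 of 13 were tested, with a median of 2.52, or -1.24 with that covariate. Smo, the signal transducer of the pathway, was counted in every library, at 75.6 to 765 CPM in dorsal and 160 to 978 CPM in ventral ones (log2 fold change 0.95, SE 0.50, edgeR adjusted p = 0.582). Hhip, an inhibitor induced by the pathway, was counted at 30 to 86 in 4 dorsal libraries and at 20 in ventral library 7, and Sufu, its cytoplasmic inhibitor, at 28 to 345 in 4 dorsal libraries and at 270 in ventral library 7. In the retinoic acid list 2 of 16 were tested, with a median of 3.40, or -0.65 with that covariate, and no member at an unadjusted p under 0.05. The receptors Rara and Rarg were both counted in dorsal libraries 31, 62 and 81 and ventral library 37, and the reductase Dhrs3 in dorsal library 82 alone (16). Over these 6 lists, 51 genes with a count in the pRPE were drawn. Dorsal libraries held a count in 91 of 357 gene-by-library values and ventral ones in 49. The number per library ran from 6 in dorsal libraries 2 and 61 to 22 in library 82, and from 2 to 11 in ventral libraries, so the dorsal libraries with few detected genes lay within the ventral range.

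**Figure D4:**
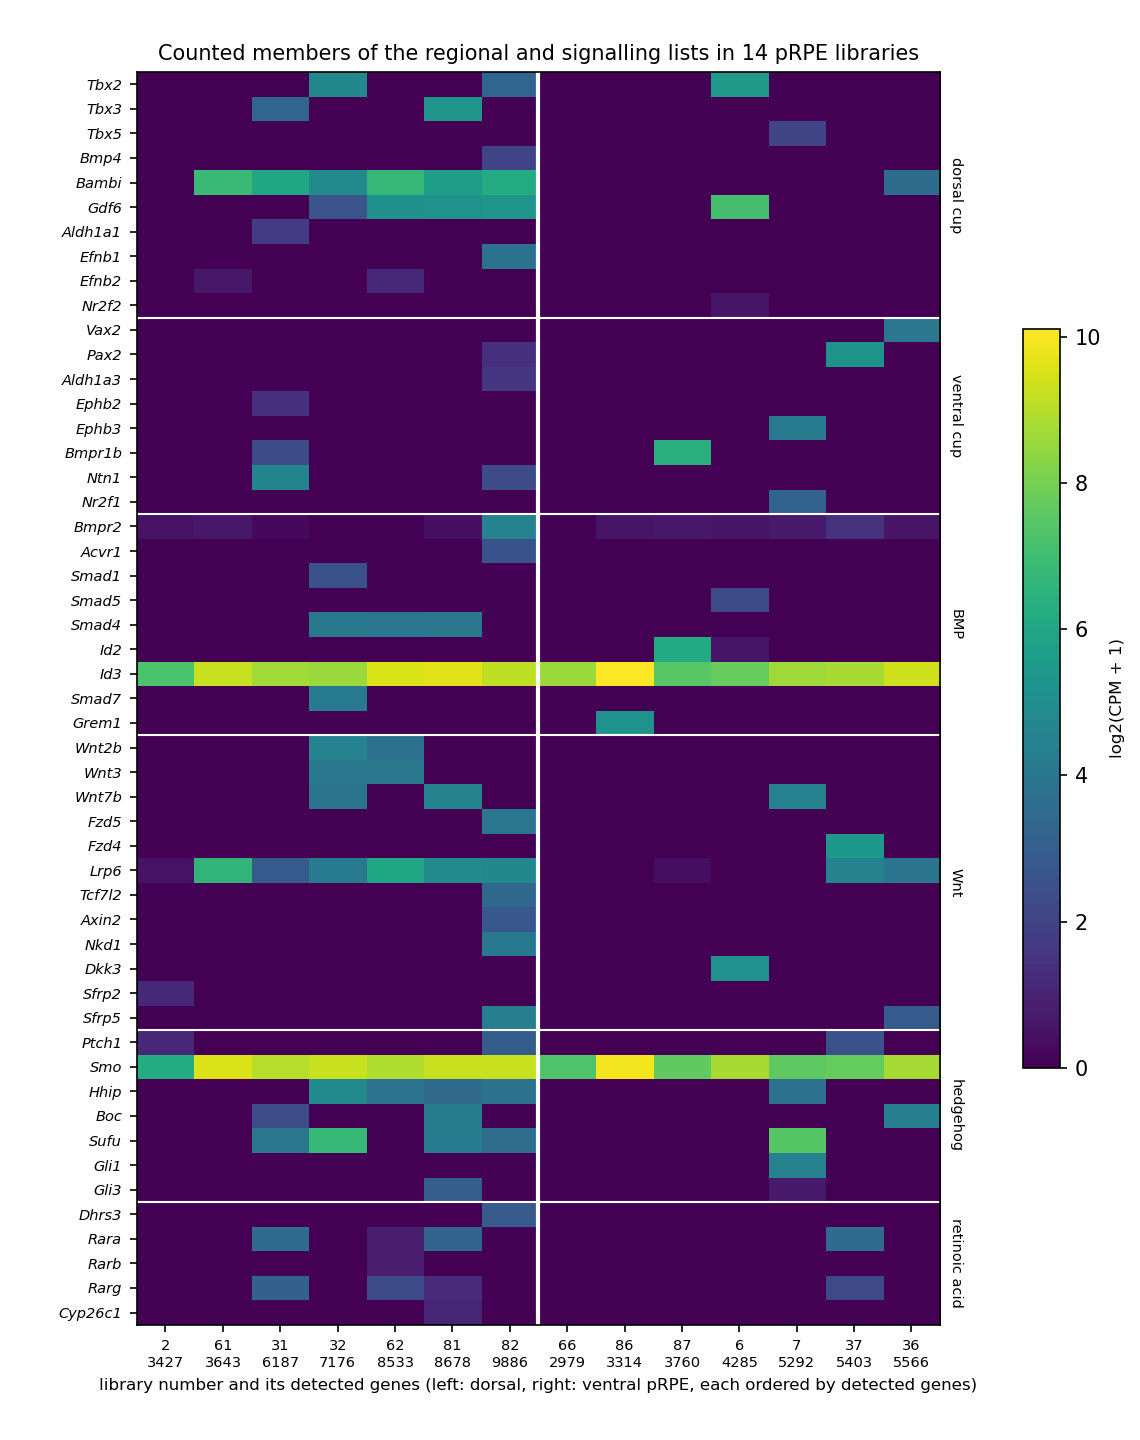
Level as log2(CPM + 1) (colour) of 51 counted members of the dorsal cup, ventral cup, BMP, Wnt, hedgehog and retinoic acid lists (rows) in the 14 pRPE libraries (columns, dorsal left of the line, each side ordered by detected genes). Id3 and Smo fill every column, Bambi fills 6 dorsal columns and 1 ventral one, and most other rows have a count in few libraries.

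The pigment programme was counted on both sides at overlapping levels. Slc45a2 ran from 174 through 655 to 1570 CPM in dorsal and from 0 through 315 to 1732 CPM in ventral libraries, with library 87 the one at 0. Gpnmb ran from 5.25 through 431 to 957 CPM and from 76.0 through 427 to 794 CPM. Both genes overlapped across their whole ranges, with log2 fold changes of 0.89 (SE 1.30) and 0.72 (SE 0.94), each with an edgeR adjusted p of 1.

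Oca2, a melanosomal anion channel, was counted at 22 to 137 in 6 dorsal libraries and at 19 to 80 in 6 ventral ones, with libraries 2 and 87 at 0 (log2 fold change 0.64, SE 1.47, edgeR adjusted p = 1). Trpm1, a cation channel of pigment cells, was counted at 29 to 837 in dorsal libraries and at up to 635 in ventral ones, where library 66 was at 0. Pmel, the fibril protein of the melanosome, was counted in dorsal library 82 (11) and in ventral libraries 36 (19) and 86 (93). Of the 16 pigment genes 6 were tested, none at an unadjusted p under 0.05 in edgeR, where 10.3% of all genes were on the dorsal side, with a median log2 fold change of 0.68 against 0.89 over all genes. With detected genes as a covariate the median was -0.14 and 1 of the 6 had an unadjusted p under 0.05, on the ventral side, as had 273 of all 6305 genes in that model.

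Mitf, the master regulator of pigment cells, was counted in 6 dorsal libraries at 71 to 699 and in 5 ventral libraries at 96 to 155. Dorsal libraries 2 and 81 were the highest and all 9 other positive libraries lay between 71 and 194 (log2 fold change 1.82, SE 1.68, edgeR adjusted p = 0.953). Without dorsal library 81 the log2 fold change of Mitf was -0.024. Its relative Tfec was counted in 3 dorsal libraries (12, 584 and 183 in 31, 61 and 81) and in 5 ventral ones at 205 to 1965. The log2 fold change of Tfec was -3.73 (SE 4.75, edgeR adjusted p = 1), and it was -8.83 in batch A alone and 1.50 in batch B alone. Otx2 was counted in dorsal libraries 62 and 82 only, at 12 and 46, and Lhx2 in dorsal library 81 and ventral library 36, at 32 and 15.

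Cadherins of the epithelium were counted as well. Cdh3, P-cadherin, was present in every library at 74.8 to 481 CPM in dorsal and 146 to 494 CPM in ventral ones (log2 fold change -0.27, SE 0.43, edgeR adjusted p = 1). Cdh1, E-cadherin, was counted in all 7 dorsal libraries at 34 to 439 and in 5 ventral libraries at 11 to 503 (log2 fold change 2.69, SE 2.12, edgeR adjusted p = 0.905). Of the other 10 genes in the list of visual cycle and RPE maturation, which also holds these cadherins, only Rlbp1, a retinal-binding protein, and Mertk, a phagocytosis receptor, had a count, Rlbp1 at 13 in dorsal library 82 alone.

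**Figure D5:**
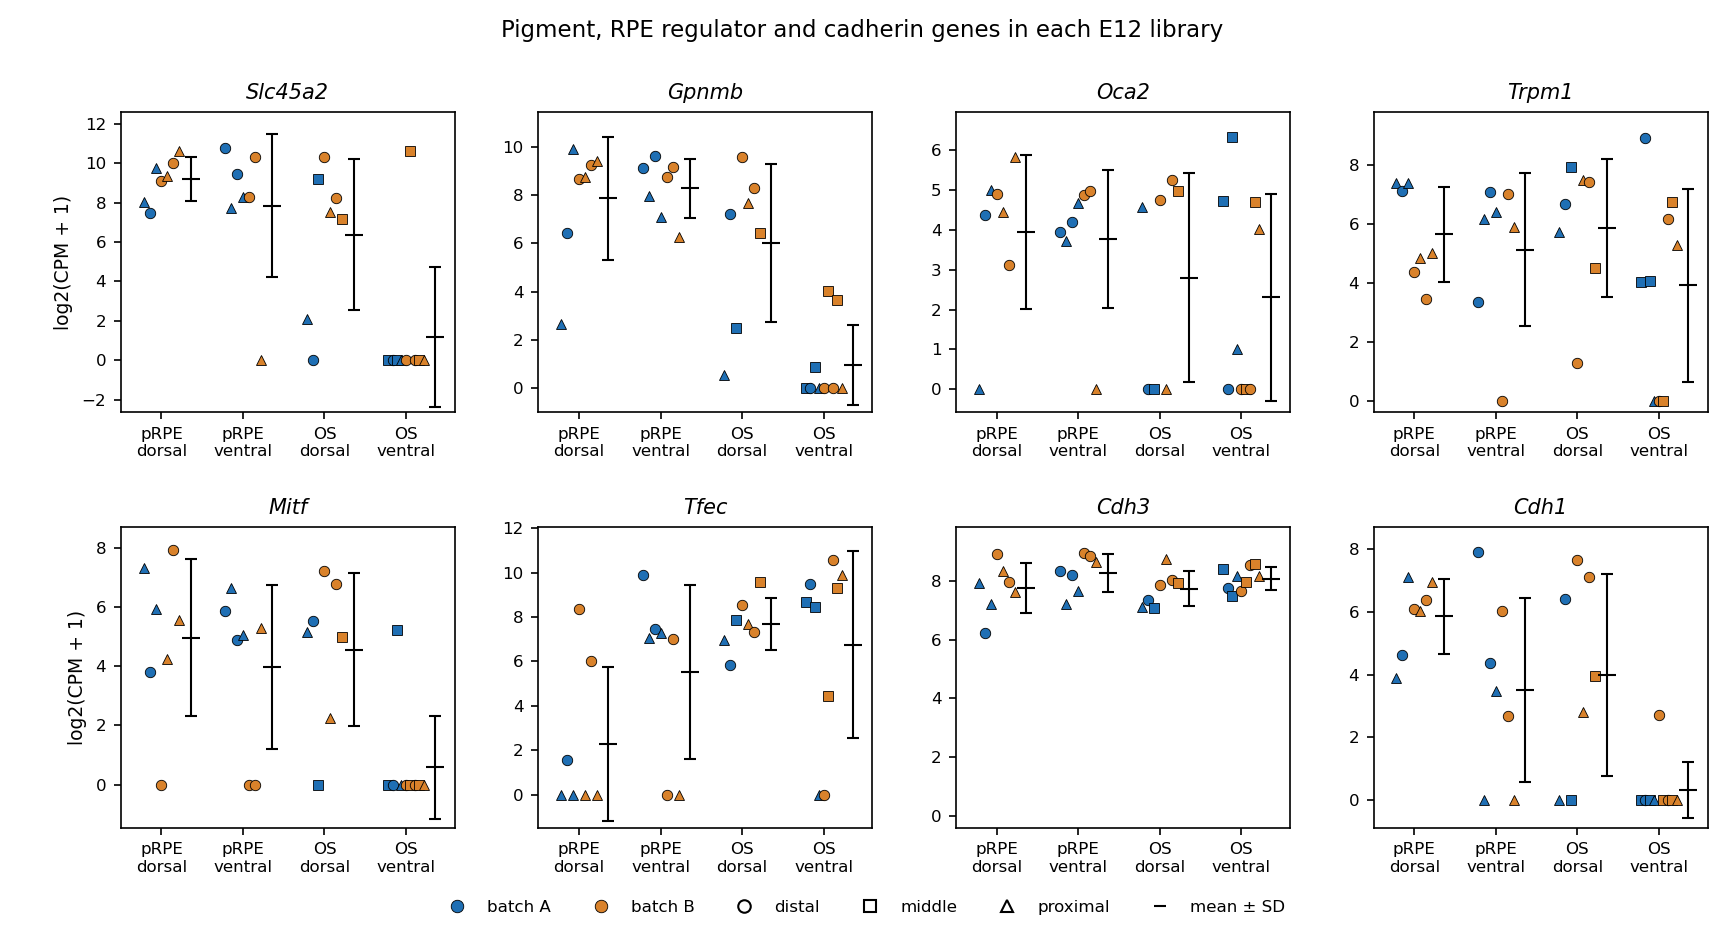
Level of 8 pigment, regulator and cadherin genes as log2(CPM + 1) (vertical axes, each panel with its own range) in the pRPE libraries and, for reference, the OS libraries. Symbols give batch and position and bars the mean ± SD. Dorsal and ventral pRPE overlap for all 8, and Slc45a2, Mitf and Cdh1 are above 0 in 1 of 9 ventral OS libraries each.

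Among subunits of the SWI/SNF (BAF) chromatin remodeller, 10 of 16 were tested and 1, Smarca2, reached an unadjusted p under 0.05 with a median log2 fold change of 0.19 over the 10, or 0.098 with detected genes as a covariate. Over all genes tested, 10.3% had an unadjusted p under 0.05 on the dorsal side without that covariate. With the covariate 1 member, Smarca2, had an unadjusted p under 0.05 on the dorsal side and 1, Smarcc1, on the ventral side (log2 fold change -8.33, edgeR adjusted p = 0.530), against 307 and 273 of all 6305 genes. Smarca2, the ATPase BRM, was counted at 35 to 225 in all dorsal libraries and at 39, 5, 76 and 62 in ventral libraries 6, 7, 36 and 37, with the 3 ventral libraries of batch B at 0 (log2 fold change 4.88, SE 2.08, edgeR adjusted p = 0.383, DESeq2 adjusted p = 0.00355). It was named after its values were seen. The alternative ATPase Smarca4 was counted in every library, at 139 to 408 in dorsal and 59 to 436 in ventral ones. The scaffold Smarcc2 was counted in every library and its partner Smarcc1 in 3 dorsal libraries at 14 to 209 and in 4 ventral ones at 13 to 482. Smarcc1 too was named after its values were seen. Mcm6, a helicase subunit of DNA replication, showed the same batch pattern as Smarca2. It was counted at 80 to 362 in dorsal libraries, at 46 to 206 in the ventral libraries of batch A and at 0 in those of batch B (log2 fold change 4.51, SE 2.50, edgeR adjusted p = 0.618, DESeq2 adjusted p = 0.0161). Those 3 ventral libraries had the fewest detected genes of their side. Smarcd2 was counted at 353 to 1958 in dorsal and 396 to 2920 in ventral libraries, and Smarcd3 at 156 to 475 and 0 to 822. Both are accessory subunits and overlapped between the sides.

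Of the 15 cell cycle genes 5 were tested, with a median log2 fold change of 0.01, or 0.089 with detected genes as a covariate. Ccnd2, a cyclin of G1 phase, was counted in every library, at 194 to 3298 in dorsal and 331 to 2559 in ventral ones. Top2a, the topoisomerase of dividing cells, was counted in 6 dorsal libraries at 17 to 120 and in 5 ventral ones at 29 to 86. Mcm2, another subunit of the replication helicase, was counted in dorsal library 32 (140) and ventral libraries 6 (482) and 66 (61). All of these genes overlapped between the sides.

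The remaining lists had few tested genes. Of RPE transcription factors 2 of 10 were tested (median log2 fold change -0.95), of visual cycle and maturation genes 2 of 12 (1.21), of optic stalk genes 3 of 10 (1.08), of neural retina genes 3 of 12 (0.29) and of periocular mesenchyme genes 2 of 12 (0.04). Of blood genes 1 of 10 was tested (-0.53), of endothelial genes 2 of 8 (1.49), of lens genes 2 of 8 (4.15) and of widely expressed genes 3 of 20 (0.43). With detected genes as a covariate these medians were, in the same order, -1.22, 0.84, 0.068, -0.49 and -0.42, and then -5.88, -1.87, 4.99 and 0.46. None of their members was called, and 1, Cryab, had an unadjusted p under 0.05 on the dorsal side, where 10.3% of all genes had one, while with the covariate 1 endothelial gene had one on the ventral side. Cryab, a small heat shock protein of lens, muscle and stressed cells, was counted at 8 to 55 in 6 dorsal libraries and at 0 in dorsal library 32 and in all ventral ones. Its dorsal mean of 5.13 ± 2.91 CPM was at least 4.24-fold above the ventral floor (edgeR adjusted p = 0.304). It passed the filter only through the dorsal side, so its p adds nothing to the count, and it is 1 of the 2 genes behind the lens median. Its reads cannot be told from those of the overlapping Hspb2. Of the other lens genes Prox1 was counted in 3 libraries (dorsal 31 and 81, ventral 66) and Cryba1 in dorsal libraries 32 and 81. Atoh7, a retinal neurogenesis factor, was counted at 5 to 14 in all 7 ventral libraries and at 0 to 16 in dorsal ones, so the ranges overlapped. Rax, an early eye field factor, was counted at 4 to 191 in 5 dorsal libraries and at 249 in ventral library 37. The proneural gene Neurog2 was listed in dorsal library 82 alone (37), and the cyclin Ccnd1 at 30 to 70 in 3 dorsal libraries and at 9 and 66 in ventral libraries 6 and 86.

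Connective tissue and blood genes spanned wide ranges on both sides. Col1a2, a fibrillar collagen, was counted at 0 to 4006 in dorsal and 0 to 725 in ventral libraries, and Col3a1 at 0 to 69 and 0 to 53. Foxc2 was listed in ventral library 37 alone (132) and Postn in dorsal library 82 alone (13). Hba-x, an embryonic globin, was counted in 4 dorsal libraries at 34 to 110 and in 3 ventral ones at 23 to 214. Hba-a1 was listed at 55 in dorsal library 82 and in ventral library 7, and the erythrocyte anion exchanger Slc4a1 in dorsal libraries 32 (109) and 82 (2). Tek, an endothelial receptor, was counted at 20 to 975 in all dorsal libraries and at 19 to 284 in 6 ventral ones. Flt1 was counted in 3 dorsal libraries and in ventral library 36, whereas the defining endothelial genes Cdh5 and Pecam1 reached 2 counts and 1 count at most.

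Cdh6, a cadherin in the optic stalk list, was counted in 4 dorsal and 6 ventral libraries, at up to 547 and 413. The glial genes of the same list were sparser. Slc1a3, a glutamate transporter, was counted at 73 to 341 in 4 dorsal libraries and at 39 and 1 in ventral libraries 7 and 36. Gfap was counted in dorsal libraries 2 and 82 and ventral library 7, and Nfia in dorsal library 62 (7) and ventral library 37 (268). Widely expressed genes were uneven as well: Tuba1b was counted in 5 dorsal libraries at 25 to 1400 and in all ventral ones at 16 to 352, and Tbp, Gapdh and Eno1 were at 0 in 2, 2 and 5 dorsal and in 4, 4 and 6 ventral libraries.

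The dorsal-ventral difference was next compared between positions and tissues. For distal against proximal pRPE, edgeR called 0 of 6305 genes (581 at an unadjusted p under 0.05) and DESeq2 called 779. For pRPE against OS, fitted over all 30 libraries, edgeR called 0 of 8337 genes (1147 at an unadjusted p under 0.05) and DESeq2 called 1542. The lowest adjusted p among the pigment genes belonged to Gpnmb, with 453 ± 334 and 402 ± 261 CPM in dorsal and ventral pRPE, but 217 ± 266 (n = 7) and 3.08 ± 5.95 CPM (n = 9) in dorsal and ventral OS. The difference of the 2 log2 fold changes was -9.37 (edgeR adjusted p = 0.162). Bambi went the other way, with 14.6 ± 38.7 and 10.8 ± 32.5 CPM in dorsal and ventral OS and a count in 1 library of each, and its difference between tissues was 8.05 (edgeR adjusted p = 0.426). Gdf6 was listed at 0 in all 16 OS libraries.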

How the data were processed

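RNA of 14 laser-captured pRPE libraries was analysed, 7 dorsal and 7 ventral, grouped by their tissue label. The deposited table holds estimated counts (expected counts, not normalized) for each gene symbol, from reads that the authors mapped to GRCm38 with HISAT2 after FastQC. StringTie is named for expression levels. Whether it also gave these counts, and the annotation release, are not given in the sources used here. Of these values 270, in 63 genes, were not whole and were rounded. No per-sample column was left unused. The members, gene lists and tests were chosen with earlier results of these data known.

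Counts were tested with edgeR 4.0.16 (R 4.3.3; TMM normalization, quasi-likelihood test, batch and position as covariates) on genes with more than 10 counts in at least 3 of the 14 libraries. Calls needed a p below 0.05 after Benjamini-Hochberg adjustment over all tested genes, and more than 0.58 on the log2 scale. DESeq2 1.42.0 and limma 3.58.1 (voom) were alternatives, and the steps were tested on simulated data. CPM scales counts to the library total, mitochondrial genes included. Totals were 1557558 to 6041021 counts per library, and 36835 genes had no count in the 14. Floors (3 counts per library) cover counting error only. Permutation tests were exact and two-sided (python 3.11.15, numpy 2.4.6, scipy 1.17.1, pandas 2.3.3). Gene positions came from GENCODE M21 on GRCm38, in which 5934 of the 6305 tested symbols were found. The kit (Nextera XT) marks no strand.

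Genes were named by rule: the 10 on either side with the smallest p among genes with a mean of at least 20 counts and the same direction in both batches, leaving out Gm and Rik gene models and pseudogenes ending in -ps, since none was called; the 5 on either side with the smallest p among nuclear genes counted in at least 12 libraries; the 4 members of each of 18 lists with the highest mean CPM; and genes whose sides did not overlap. The lists cover dorsal and ventral cup, BMP, Wnt, hedgehog, retinoic acid, RPE factors, pigment, visual cycle, optic stalk, retina, mesenchyme, blood, endothelium, lens, cell cycle, BAF and widely expressed genes. Other genes of the lists were named after their values were seen. A few genes that the rule names are not reported here. Library numbers fall into 4 runs that may be embryos, and the labels do not say so.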

Additional observations from a re-analysis of the deposited data

Results flagged for a closer look

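Of the 69 groups of 7 libraries checked for the genes named above, 11 held a library that lay far from the other 6. The rule marks about 1 in 20 groups of normally distributed values. A value at 0 beside counted libraries breaks that condition, so the 11 were not read as an excess. Values are log2(CPM + 1). Among dorsal libraries, library 2 stood apart in 5 genes: it was the lowest for Acd (0.0), Bambi (0.0), Taf4b (1.39) and Smo (6.26) and the highest for Psenen-ps (10.26). Library 2 was also the dorsal library with the fewest detected genes, 3427. Dorsal library 32 was the lowest for S1pr2 (0.0) and Cryab (0.0). Among ventral libraries, library 87 was the lowest for Slc45a2 (0.0) and Oca2 (0.0), the transporter and the channel of melanosomes, and its 267 counts of Gpnmb were also the lowest level of that gene among ventral libraries. Ventral library 6 was the lowest for Snd1 (6.34) and ventral library 86 the highest for Golph3 (11.17).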

How the results depend on the processing

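edgeR called 0 genes in every setting but 1: without the filter on low counts it called 39 higher and 1 lower (Minar1). DESeq2 called 222 and 19, and limma voom 43 and 1 (mt-Nd1). Between positions DESeq2 called 779 genes, between tissues 1542, and among list members 4 entries (Bambi in both its lists, Mcm6 and Smarca2). The median log2 fold change was 0.093 over genes counted in at least 12 libraries and -0.21 with detected genes as a covariate, and 0.18 in batch A and 1.12 in batch B. The difference in detected genes was 460 in batch A, 4334 in batch B, 2133 in distal and 2437 in proximal libraries, and 1903 (without dorsal library 82) to 2979 (without dorsal library 2) with 1 library left out. The mitochondrial share, lower in dorsal than in ventral libraries over all 14, was higher in dorsal ones by 1.05 percentage points in batch A and by 1.02 in distal libraries, and differed by -6.83 in proximal libraries. The causes were not tested.

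Of 1391 gene values under alternatives, 16 changed sign and 40 passed the threshold, all of the latter under DESeq2, limma voom or no filter. In log2 fold change, the signs that changed were Lmbr1 in batch A (-1.03, although its dorsal libraries there were at 165, 29.0 and 0 CPM and its ventral ones at 0), Gdf6 with detected genes as a covariate (-3.49), Tfec in batch B (1.50) and distal libraries (0.11), Slc45a2 by limma voom (-0.63) and in distal libraries (-0.62), Gpnmb with that covariate (-0.63), in distal libraries (-0.65) and as a difference of log2(CPM + 1) (-0.42), Oca2 with that covariate (-0.52), Cdh3 in proximal libraries (0.044), and Id3 with that covariate (-0.18) and in batch A (-0.061). With 1 library left out, Gdf6 ran from -0.67 (without ventral library 87) to 7.79, Mitf from -0.024 (without dorsal library 81) to 2.86 and Gpnmb from -0.14 (without dorsal library 32) to 1.29.

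No library number occurs on both sides and the labels name no pairs, so single libraries were not paired. The numbers fall into 4 runs that each hold both sides. With the run as a block in place of batch, edgeR called 0 genes (558 higher and 21 lower at an unadjusted p under 0.05) and the median was 1.02. No ventral optic cup gene passed the filter, and differences in them were not detectable here.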
